A study of Mus musculus with 4 samples.

Results

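The genes described are the G1 cyclins Ccnd1, Ccnd2, Ccnd3, Ccne1 and Ccne2, the cyclin-dependent kinases Cdk4, Cdk6 and Cdk2, and the phosphatase Cdc25a. They were taken by symbol, as every probe set that the platform's annotation assigns to 1 of these 9 genes and to no other gene. This gave 27 of the 45037 tested probe sets, and 9 of the 18193 genes represented among them. The groups were whole Cop1 null mouse embryos and whole control embryos, both at embryonic day 9.5. The controls were +/+ or +/- for Cop1, although their sample titles call them wild type, with the strain and the construction of the null allele not given in the sources used here. For each group, RNA of 6 embryos was mixed into 1 pool, the pool was divided in 2, and each portion was hybridised to 1 Affymetrix array. The spread between portions is technical, so each SD, interval and p-value below measures that spread and carries no information on differences between embryos.

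Cells pass from G1 into S phase through a relay of these proteins. D-type cyclins accumulate in response to mitogens and activate CDK4 and CDK6, which phosphorylate the retinoblastoma protein and its relatives and so release E2F transcription factors. E2F switches on the genes of cyclin E and of DNA replication, and cyclin E with CDK2 completes the step, helped by the CDC25A phosphatase, which removes inhibitory phosphates from CDK2. COP1 is the substrate-binding part of a ubiquitin ligase that sends JUN, ETV proteins and other factors to the proteasome.

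Values are log2 expression after RMA, as deposited, and differences are Cop1 null minus control on that scale. A gene or probe set is said to have risen or fallen where the adjusted p from limma, over all tested probe sets, was under 0.05 and the difference was at least 1.5-fold (0.58 log2 units). Each gene is represented by its brightest probe set, judged by the mean of all 4 arrays. The Cop1 probe set read 9.67 and 9.77 on the null arrays, against 11.35 and 11.26 on the control arrays, and where it lies relative to the deleted part is not known here. Pearson's r across probe sets, which are not independent, was 0.998 between portions of either pool and 0.980 to 0.982 between arrays of different genotype.

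Transcripts of the G1 cyclins and kinases were lower in the Cop1 null pool for most members, and the reduction was deepest for Ccne1 and Ccnd1. By the representative probe sets 3 of 9 genes fell, namely Ccne1, Ccnd1 and Ccne2, and 0 rose, beside 8.06% of all genes that fell and 3.58% that rose. Both null arrays lay below both control arrays for 9 of 9 genes by these probe sets, a pattern found in 39.3% of all genes, although Ccnd3 turned to a positive difference with the mean of its probe sets. At an adjusted p under 0.05 with no limit on the fold, 7 of 9 genes were lower, beside 21.8% of all genes. The median difference of the 9 genes was -0.47 log2 units, whereas that of all genes was -0.02. As these are whole embryos, fewer cells that express a gene and less of its RNA per cell cannot be told apart.

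Over single probe sets, 7 of 27 fell and 1 rose, and 6.96% of all probe sets fell and 6.76% rose. The null arrays lay below the control arrays in 22 of the 27, above them in 3 and overlapped with them in 2, and the shares over all probe sets were 32.7% below and 32.6% above. At an adjusted p under 0.05 alone 19 of 27 were lower, beside 17.6% of all probe sets. Of the 27, 4 belonged to the dimmest 40% of the array, with means of at most 5.07. Of the other 23, whose means were at least 7.13, 22 were lower on both null arrays, and the exception was a probe set of Ccnd3.

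**Figure D1:**
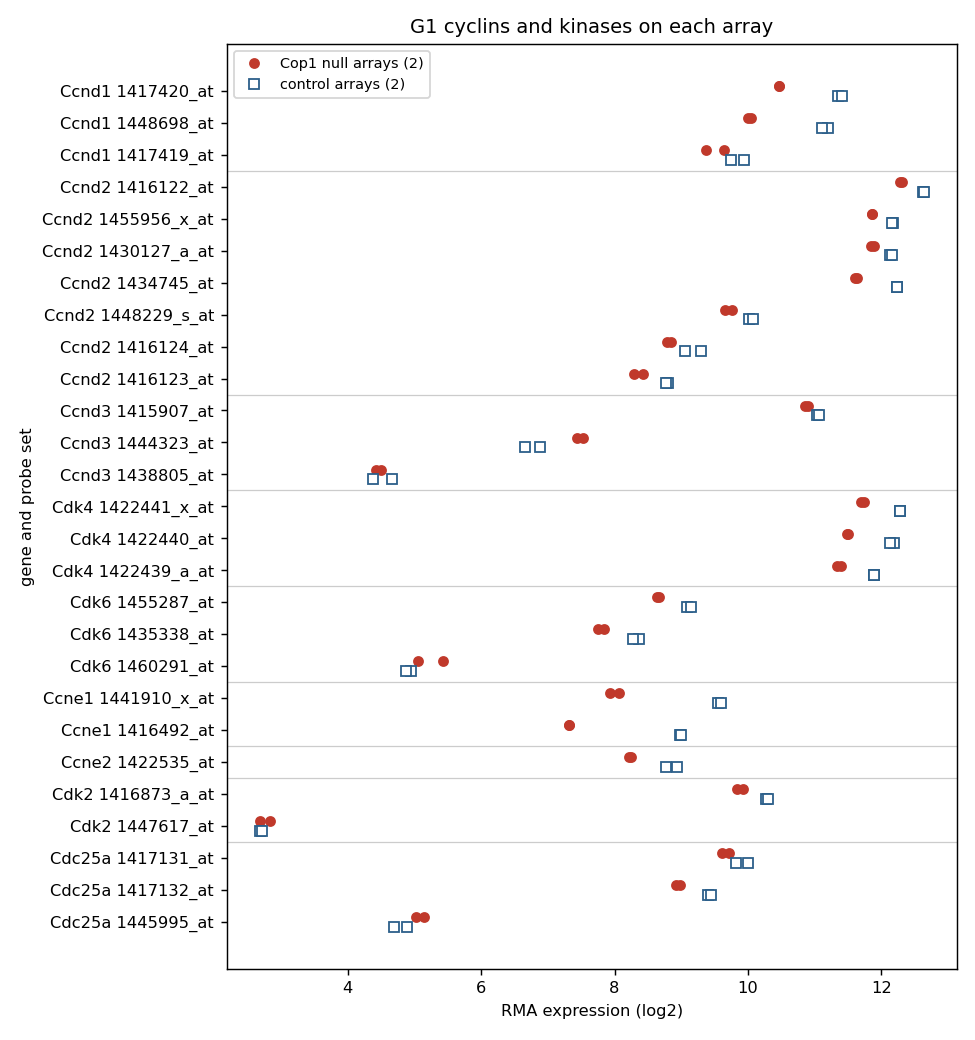
RMA expression (log2, horizontal axis) of the 27 probe sets of the G1 cyclins and kinases (vertical axis), with 1 filled circle for each of the 2 Cop1 null arrays and 1 open square for each of the 2 control arrays. The null arrays lie left of the control arrays in 22 probe sets, and portions of 1 pool lie closer together than the pools in the Ccne1 rows, the 2 brighter Ccnd1 rows and the Cdk4 rows.

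Ccnd1 encodes cyclin D1, the D-type cyclin best known as a sensor of growth factor signalling, and lies at chr7:144929931-144939831 (GRCm38.p6). Its brightest probe set, 1417420_at, read 10.47 and 10.47 on the null arrays, against 11.35 and 11.41 on the control arrays. The groups are well apart, and the null level was 53.2% of the control level (95% interval 47.4% to 59.7%). The difference was -0.91 (SE 0.06, limma, adjusted p = 0.00132), which placed Ccnd1 at rank 448 from the lowest among 18193 genes. A second probe set, 1448698_at, read 10.00 and 10.05 in the null pool, against 11.21 and 11.11 in the control pool, and fell by 1.14 on the log2 scale (SE 0.07, adjusted p = 0.00103). In the third, 1417419_at, portions of the null pool differed by 0.27, which is close to the gap between the pools. It read 9.37 and 9.64 in the null pool, against 9.75 and 9.94 in the control pool, and was not called (-0.34, adjusted p = 0.0974).

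Ccnd2, the gene of cyclin D2 at chr6:127125162-127152188, was lower by a smaller amount in each of its 7 probe sets. The brightest, 1416122_at, read 12.29 and 12.31 on the null arrays, against 12.62 and 12.64 on the control arrays, so that the null level was 79.1% of the control level (95% interval 70.9% to 88.3%). Its difference of -0.34 had an adjusted p of 0.0146 and stayed under the fold limit. All 7 probe sets had an adjusted p under 0.05, with differences between -0.27 and -0.62, but that of 1416124_at was 0.0496. With quantile normalization applied once more, 1416124_at had an adjusted p of 0.0686. With the replicate block it had 0.0521, and 1430127_a_at had 0.0603. In each fit with 1 array left out, 1416122_at and several of the others were above 0.05. The difference of 1416122_at in those fits was between -0.35 and -0.33. Only 1434745_at passed the fold limit. It read 11.64 and 11.60 in the null pool, against 12.24 and 12.23 in the control pool, and fell by 0.62 on the log2 scale (SE 0.06, adjusted p = 0.00284), but by quantile normalization applied once more the difference was -0.58 and under the limit. The interval of this probe set, -0.78 to -0.46, overlaps slightly with that of the brightest one, -0.50 to -0.18.

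Ccnd3, which encodes cyclin D3 and lies at chr17:47505051-47599689, had probe sets in opposite directions, with 1 of them called. The bright one, 1415907_at, read 10.90 and 10.86 on the null arrays, against 11.04 and 11.06 on the control arrays (-0.17, adjusted p = 0.103), an interval of 79.4% to 99.4% of the control level. The dimmer 1444323_at went the other way. It read 7.53 and 7.44 on the null arrays, against 6.89 and 6.65 on the control arrays, and rose by 0.72 (SE 0.10, adjusted p = 0.00709). That rise lost its call without Cop1 null replicate 1 (0.67, adjusted p = 0.054) and with centring on the poly-A spikes (0.46, adjusted p = 0.0762). The third, 1438805_at, was dim and its groups overlapped (-0.07). With the mean of the 3 probe sets in place of the brightest one, Ccnd3 had a difference of 0.16 (adjusted p = 0.15), so the gene has no settled direction in these data.

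The D cyclins act through CDK4 and CDK6. Cdk4, at chr10:127063535-127067288, was among the brightest members, and its 3 probe sets moved together. The representative 1422441_x_at read 11.74 and 11.70 on the null arrays, against 12.29 and 12.27 on the control arrays, or 67.9% of the control level (95% interval 60.7% to 75.9%). At -0.56 (SE 0.06, adjusted p = 0.00378) it stood just inside the fold limit and was not called. The neighbouring 1422440_at, which read 11.49 and 11.51 in the null pool and 12.18 and 12.13 in the control pool, was just beyond it and fell by 0.66 on the log2 scale (SE 0.06, adjusted p = 0.00252). The third probe set was lower by the same order (-0.52, adjusted p = 0.00479). The intervals of all 3 overlap, so the single call among them does not separate one Cdk4 probe set from the others. The suffix _x_at marks probe sets whose probes can also bind other transcripts, which applies to 1 probe set each of Cdk4, Ccnd2 and Ccne1.

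Cdk6, at chr5:3341004-3531008, is the second partner of the D cyclins. Its brightest probe set, 1455287_at, read 8.63 and 8.66 on the null arrays, against 9.09 and 9.14 on the control arrays (-0.47, SE 0.06, adjusted p = 0.00621). A second one, 1435338_at, read 7.75 and 7.84 in the null pool, against 8.37 and 8.28 in the control pool (-0.53, SE 0.07, adjusted p = 0.00658). Both had null portions below control portions and differences under the fold limit, with 72.1% and 69.2% of the control level. The dim 1460291_at read 5.05 and 5.42 in the null pool, against 4.94 and 4.87 in the control pool (0.33, adjusted p = 0.131), and its null portions differed by 0.37.

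The upstream sequence of Cdk4 is shown because its 3 probe sets were lower together and because it carries a repeated word. It covers the 250 bases before the gene's start at chr10:127063285-127063534 on the plus strand of GRCm38.p6, from RefSeq, read 5′ to 3′. Capitals mark the E-box CACGTG, a palindrome that MYC and MYCN bind with their partner MAX.
Cdk4: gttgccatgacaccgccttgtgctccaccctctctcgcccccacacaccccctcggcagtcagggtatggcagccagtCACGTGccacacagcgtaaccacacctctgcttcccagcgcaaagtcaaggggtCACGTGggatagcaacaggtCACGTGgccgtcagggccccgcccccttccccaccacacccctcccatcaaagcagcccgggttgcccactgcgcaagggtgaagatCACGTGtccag
The word occurred 4 times in Cdk4 and 1 time in the Cdk6 window, which precedes a later transcript start inside that gene. Of 32851 promoter windows of the same length, 6.02% held at least 1 E-box and 7 windows (0.0213%) held 4 or more. Myc and Mycn, the 2 genes of these factors on the lists, were not called, as Myc differed by 0.00 and Mycn by 0.23 (adjusted p = 0.0487, under the fold limit). A match of letters is a description of this window and shows no binding.

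The 2 cyclin E genes both fell, and Ccne1 had the largest difference of all members. Ccne1 encodes cyclin E1, the main activator of CDK2 at the start of S phase, and lies at chr7:38097984-38107490. Its representative probe set, 1441910_x_at, read 7.94 and 8.07 on the null arrays, against 9.55 and 9.60 on the control arrays, so that the null level was 33.6% of the control level (95% interval 29.4% to 38.5%). The gap between the pools is far wider than the largest gap between portions, 0.13. It fell by 1.57 on the log2 scale (SE 0.08, 2.97-fold, adjusted p = 0.000728), rank 43 from the lowest among 18193 genes. The other probe set, 1416492_at, gave the same picture with 7.31 and 7.32 in the null pool, against 8.99 and 9.0 in the control pool (-1.68, SE 0.06, adjusted p = 0.000565). Both probe sets kept their calls in each alternative setting, also with a limit of 2-fold.

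Ccne2 encodes cyclin E2, a close relative of cyclin E1 that also activates CDK2, at chr4:11190433-11204779. Its single probe set, 1422535_at, read 8.22 and 8.25 on the null arrays, against 8.78 and 8.94 on the control arrays. The groups did not overlap, and the control portions were the more spread. Ccne2 fell by 0.62 on the log2 scale (SE 0.08, 1.54-fold, adjusted p = 0.00568), to 64.9% of the control level (95% interval 56.1% to 75.03%). This call rests on a difference just past the fold limit. It was lost without control replicate 2 (-0.54, adjusted p = 0.0352) and by quantile normalization applied once more (-0.56, adjusted p = 0.00589), both for the fold alone.

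**Figure D2:**
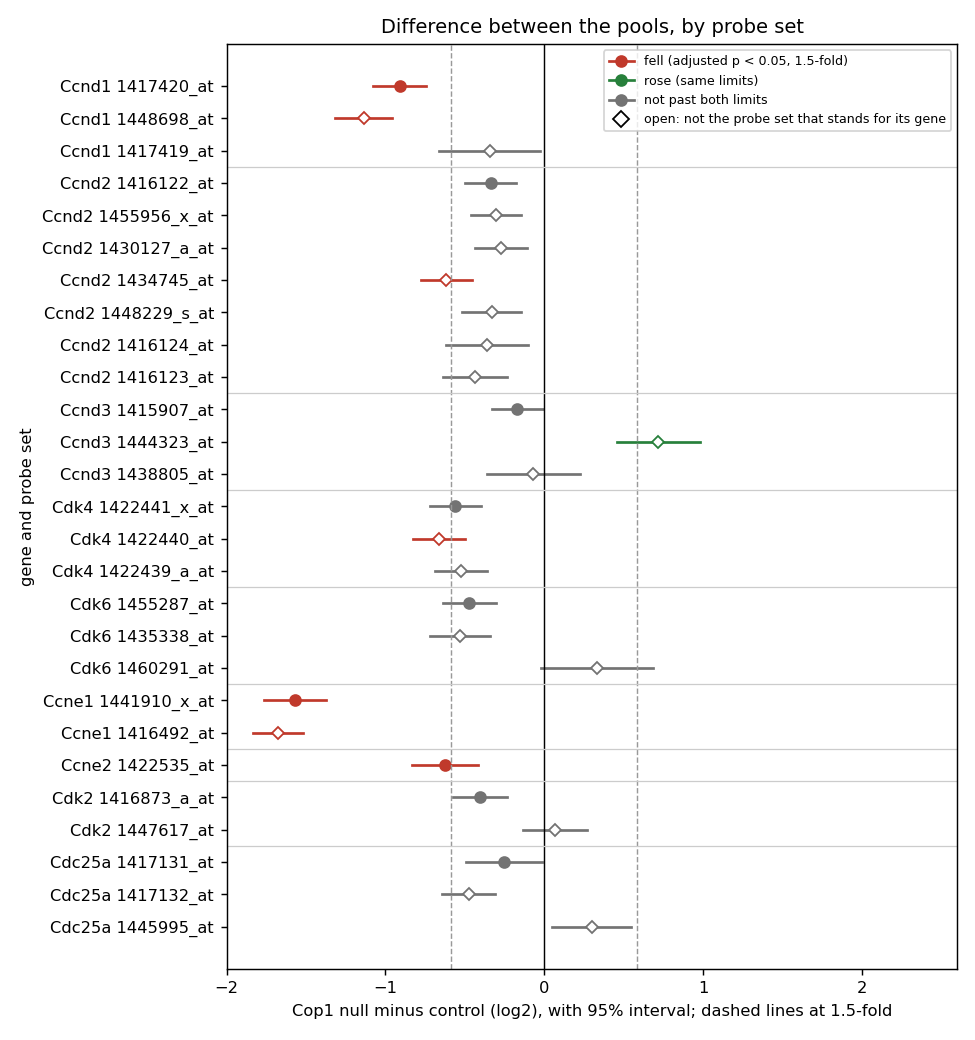
Difference between the pools (Cop1 null minus control, log2, horizontal axis) with its 95% interval for each probe set (vertical axis), with filled circles for the probe set that stands for its gene, open diamonds for the others and dashed lines at 1.5-fold. Ccne1 lies farthest to the left at -1.57 and -1.68, Ccnd1 follows at -0.91 and -1.14, and 1 probe set of Ccnd3 lies to the right at 0.72.

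Cdk2 encodes the kinase that cyclin E activates and lies at chr10:128697938-128705051. Its probe set 1416873_a_at read 9.92 and 9.84 on the null arrays, against 10.27 and 10.30 on the control arrays, which is 75.5% of the control level (95% interval 67.0% to 85.1%). The difference of -0.40 (SE 0.07, adjusted p = 0.0111) was larger than the gap between portions and under the fold limit. The other Cdk2 probe set, at 2.69 and 2.84 in the null pool and 2.68 and 2.71 in the control pool, was at the floor of the array and its groups overlapped.

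Cdc25a, at chr9:109875518-109893895, encodes the phosphatase that removes the inhibitory phosphates from CDK2. Its brightest probe set, 1417131_at, read 9.61 and 9.72 on the null arrays, against 9.82 and 10.01 on the control arrays (-0.25, SE 0.09, adjusted p = 0.102). The next, 1417132_at, was tighter, with 8.98 and 8.93 in the null pool, against 9.41 and 9.45 in the control pool (-0.48, SE 0.06, adjusted p = 0.00638). Neither passed the fold limit, and their 95% intervals, -0.49 to -0.01 and -0.64 to -0.31, overlap. The dim 1445995_at read 5.15 and 5.03 in the null pool and 4.89 and 4.69 in the control pool (0.30, adjusted p = 0.0771).

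The upstream sequences of Ccne1, the member with the deepest fall, and of Cdk2, which differed less, are shown for the E2F word. They cover 250 bases before the gene's start in GRCm38.p6, from RefSeq, and are read 5′ to 3′ on the strand of the gene, at chr7:38107491-38107740 (minus) for Ccne1 and chr10:128705052-128705301 (minus) for Cdk2. The words searched on both strands were TTTCCCGC, TTTCGCGC, TTTGCCGC and TTTGGCGC for E2F, CACGTG, the AP-1 word TGANTCA, which JUN and FOS proteins bind, and the CRE half-site TGACGT, and capitals mark each match.
Ccne1: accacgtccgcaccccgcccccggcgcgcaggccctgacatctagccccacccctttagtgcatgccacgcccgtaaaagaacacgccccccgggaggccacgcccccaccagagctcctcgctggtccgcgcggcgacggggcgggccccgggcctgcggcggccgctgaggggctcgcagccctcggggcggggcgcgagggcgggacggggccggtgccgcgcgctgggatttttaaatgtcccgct
Cdk2: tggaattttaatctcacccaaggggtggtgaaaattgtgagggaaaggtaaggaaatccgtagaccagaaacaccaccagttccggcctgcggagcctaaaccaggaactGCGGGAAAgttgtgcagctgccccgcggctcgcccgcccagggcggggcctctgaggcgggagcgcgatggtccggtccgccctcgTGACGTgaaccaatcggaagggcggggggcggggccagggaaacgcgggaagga
An E2F word occurred 1 time in Cdk2 and 1 time in the Cdc25a window at chr9:109875329-109875578, which precedes a later transcript start and ends inside the gene, and 1.86% of all windows held one. Cdk2 also held 1 CRE half-site, as did a Ccnd3 window inside that gene at chr17:47593217-47593466. At least 1 such half-site was found in 6.47% of all windows. The Ccne1 window held none of these words, and the AP-1 word, found in 6.75% of windows, occurred in none of the 7 member windows. RefSeq windows were at hand for 6 of the 9 genes, and Ccnd1, Ccnd2 and Ccne2 were not searched.

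The retinoblastoma and E2F factors lie directly downstream of the G1 kinases. Among pocket proteins, E2F factors and their DP partners, 5 of 13 genes fell and 0 rose, with a median of -0.46. Over all genes 8.06% fell and 3.58% rose. At an adjusted p under 0.05 alone 10 of the 13 were lower and 1 was higher, beside 21.8% of all genes that were lower. By the representative probe sets 12 of these 13 differences were negative and 1 was positive. The positive one was that of Rb1, the retinoblastoma gene, at 0.53 (adjusted p = 0.00699, under the fold limit). Another probe set of Rb1 rose, as did 2 of the 3 others of Rbl1 and 1 of the 3 others of Tfdp2. The representative differences of these 2 genes were -0.58 and -0.20, so their direction depends on the probe set. Among the other probe sets of the list, 1 of E2f2 fell. E2f3, an activating E2F, read 7.96 and 7.96 in the null pool, against 9.42 and 9.44 in the control pool, and fell by 1.47 on the log2 scale (adjusted p = 0.000633). Its 1 other probe set was not called and did not share this fall, as the mean over both was -0.72. E2f7, a repressing E2F that limits the response, fell by 1.32, E2f2, another activator, by 1.06 and Tfdp1, a DP partner, by 0.60. Tfdp1 stayed under the fold limit without Cop1 null replicate 2 (-0.56, adjusted p = 0.0323) and by quantile normalization applied once more (-0.56). E2f8, a relative of E2f7 named after its value was seen, fell by 0.60. It stayed under the fold limit with the mean of its probe sets (-0.36), by quantile normalization applied once more (-0.53) and without control replicate 2 (-0.58). With the mean of each gene's probe sets the list held 4 falls and 1 rise, and by quantile normalization applied once more it held 3 falls and 1 rise.

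Of 19 measured genes that E2F turns on for S phase, 3 fell and 1 rose, and the median was -0.24. The shares over all genes were 8.06% that fell and 3.58% that rose. At an adjusted p under 0.05 alone 11 of the 19 were lower and 1 was higher, beside 21.8% of all genes that were lower. Tk1, the thymidine kinase gene, read 8.93 and 8.98 in the null pool, against 9.84 and 9.86 in the control pool, and fell by 0.89 on the log2 scale (adjusted p = 0.00132). Orc1, a subunit of the origin recognition complex, fell by 0.78 and Rrm2, the small subunit of ribonucleotide reductase, by 0.63. The Orc1 call was lost with the mean of its 2 probe sets (-0.41, adjusted p = 0.00454). Tyms, the thymidylate synthase gene, rose by 0.68 in its representative probe set, but another of its probe sets fell and the mean over its probe sets gave -0.26. Its rise also missed the limits with centring on the poly-A spikes (0.42, adjusted p = 0.114) and without Cop1 null replicate 1 (0.80, adjusted p = 0.0553), Cop1 null replicate 2 (0.55, adjusted p = 0.112) or control replicate 1 (0.52, adjusted p = 0.0907).

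**Figure D3:**
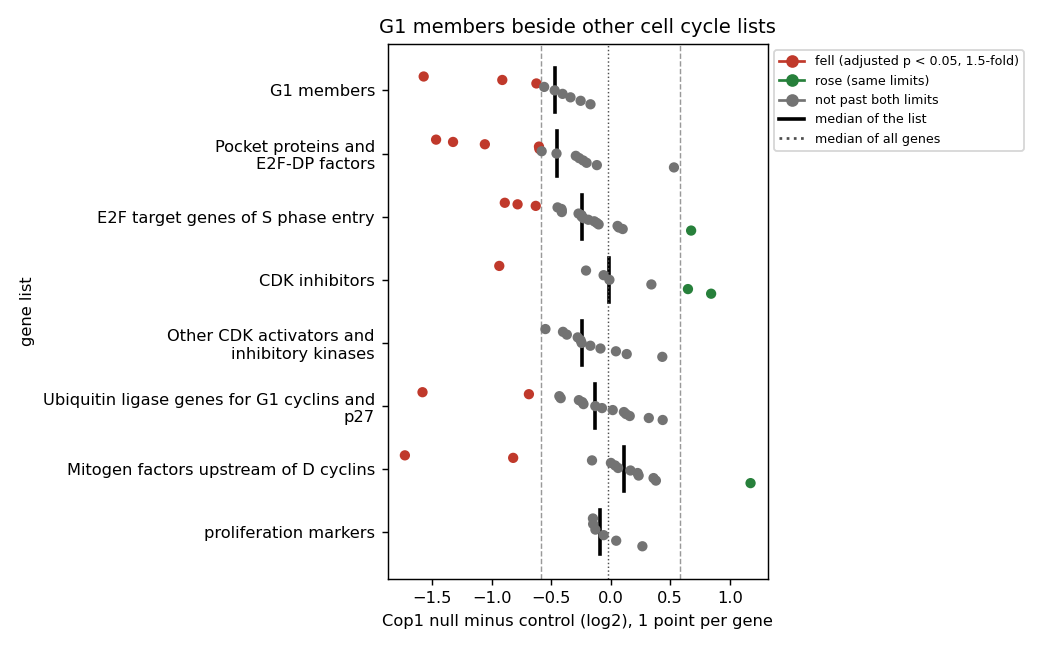
Difference between the pools (Cop1 null minus control, log2, horizontal axis) of each gene's representative probe set, for the G1 members and 7 other cell cycle lists (vertical axis), with a bar at the median of each list, dashed lines at 1.5-fold and a dotted line at the median of all genes. The medians of the G1 members (-0.47) and of the pocket protein and E2F list (-0.46) lie to the left of those of the other lists plotted, and the proliferation markers lie between -0.15 and 0.27.

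The CDK inhibitors, which block these kinases, went both ways. The list of 7 genes had a median of -0.01, and 2 of them rose while 1 fell, beside 3.58% of all genes that rose and 8.06% that fell. Cdkn1b, the gene of the CDK2 inhibitor p27, read 10.64 and 10.61 in the null pool, against 9.72 and 9.83 in the control pool, and rose by 0.84 (adjusted p = 0.0019). Cdkn1a, the gene of p21, rose by 0.65, and Cdkn2c, the gene of the CDK4 and CDK6 inhibitor p18, fell by 0.94. No other probe set of Cdkn1b or Cdkn1a was called. The Cdkn1b mean over its 2 probe sets was 0.58 and under the fold limit, and the Cdkn1a rise missed the limits with centring on the poly-A spikes (0.39, adjusted p = 0.144).

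Among 11 measured activators and inhibitory kinases of CDKs, 0 passed both limits in limma. At an unadjusted p under 0.05, 7 were lower and 1 was higher, a limit at which the share of all genes was not computed. At an adjusted p under 0.05 alone 6 were lower and 1 was higher, beside 3973 lower and 2192 higher among all 18193 genes. The members farthest from 0 were Wee1, the kinase that places the inhibitory phosphate, at -0.55, and Mnat1, a subunit of the CDK-activating kinase, at 0.43. Wee1 passed the limits with the mean of its probe sets (-0.62), with centring on the poly-A spikes (-0.81) and without control replicate 1 (-0.59). Of 15 genes of ubiquitin ligases, including those that destroy cyclin E, the D cyclins and p27, 2 fell and 0 rose. The shares over all genes were 8.06% that fell and 3.58% that rose. One of the 2 was Cop1 (-1.58), the gene that defines the groups, so its fall is no result about the list. The other was Fbxw7, the receptor that targets cyclin E protein. It read 7.65 and 7.75 in the null pool, against 8.39 and 8.39 in the control pool (-0.69, adjusted p = 0.00284). No other probe set of Fbxw7 was called.

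Among 12 factors that act upstream of the D cyclin genes, 2 fell and 1 rose, beside 8.06% of all genes that fell and 3.58% that rose. Their median was 0.11 and became -0.14 with centring on the poly-A spikes. Etv5 and Etv4, factors of FGF signalling, fell by 1.73 and 0.82. Stat3, a factor of cytokine signalling, read 9.45 and 9.52 in the null pool, against 8.32 and 8.30 in the control pool, and rose by 1.17 (adjusted p = 0.000894), as did 2 of its 3 other probe sets. With the mean of its probe sets Etv4 stayed under the fold limit (-0.45).

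Of 6 general markers of dividing cells, 0 passed both limits in limma, and the median was -0.09. Over all 18193 genes, 3973 were lower and 2192 higher at an adjusted p under 0.05 alone. Of the 6 markers 1 was higher and 0 were lower, both at that limit and at an unadjusted p under 0.05. This was Bub1, a mitotic checkpoint kinase gene, at 0.27 (adjusted p = 0.0298), although another of its probe sets fell. Their mean level was 11.13 and 11.09 on the null arrays, against 11.15 and 11.14 on the control arrays. Aurkb, another mitotic kinase gene, had a difference of -0.15.

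Markers of several cell types moved with genotype, and their part in the G1 differences was not tested. The shares to set beside these counts are 8.06% of all genes that fell and 3.58% that rose. Early neuron markers fell in 6 of 8 cases and rose in 0, led by Neurod4 (-1.63) and Neurod1 (-1.29), with mean levels of 8.60 and 8.61 on the null arrays, against 9.56 and 9.58 on the control arrays. Somite markers fell in 4 of 7 cases, led by Pax1 (-1.59) and Myog (-1.49), with mean levels of 7.17 and 7.24 on the null arrays, against 7.98 and 8.0 on the control arrays. Neural progenitor markers fell in 3 of 7 cases, led by Fabp7 (-1.09) and Hes5 (-0.75), with mean levels of 9.11 and 9.03 on the null arrays, against 9.5 and 9.51 on the control arrays. Endothelial markers rose in 3 of 7 cases, led by Flt1 (1.80) and Kdr (0.74), with mean levels of 8.55 and 8.55 on the null arrays, against 7.94 and 7.89 on the control arrays, and Kdr was not called with centring on the poly-A spikes (0.49).

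The other marker lists held mixed or few calls, beside 8.06% of all genes that fell and 3.58% that rose. Erythroid markers held 1 fall among 7, Klf1 (-0.79), heart muscle 1 rise and 1 fall among 8, Myh7 (1.20) and Tnni1 (-0.75), and gut endoderm 1 rise among 6, Hhex (1.10). Yolk sac endoderm held 2 falls among 6, Ttr (-1.53) and Afp (-1.01). The limb bud list held 2 falls and 1 rise among 5, with Pitx1 at -0.79 and Prrx1 at 1.51, although 3 of the other 5 probe sets of Prrx1 fell. With the mean of each gene's probe sets this list held 0 calls in limma, with Pitx1 at -0.56 and Prrx1 at -0.39 (adjusted p = 0.00458 and 0.00582), and without either Cop1 null replicate it held 3 falls and 0 rises. Trophoblast and decidua markers held 1 rise among 6, Ascl2 (0.64). Their mean levels were 5.04 and 4.98 on the null arrays, against 4.91 and 4.88 on the control arrays. Ascl2 was not called by quantile normalization applied once more (0.57), with centring on the poly-A spikes (0.38) or without Cop1 null replicate 1 (0.54), Cop1 null replicate 2 (0.74) or control replicate 2 (0.45). The labelled tissue, the whole embryo, carried markers of blood, heart, neural tube and somites on all 4 arrays.

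Genes closest in pattern to Ccne1 and Ccnd1 were sought over the 4 arrays, as the smallest Euclidean distance between values centred on each gene's mean. For Ccne1 these were Bcl11a (distance 0.04), Heyl (0.07) and Nkrf (0.07), and for Ccnd1 they were Snf8 (0.02), Adcyap1r1 (0.02) and Klhl23 (0.03). Bcl11a, for example, read 7.32 and 7.46 on the null arrays, against 8.97 and 9.03 on the control arrays. With 2 pools, such likeness is mainly an equal difference between them, and the differences were -1.61 for Bcl11a and -0.92 for Snf8.

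The order of the members by depth of the reduction was Ccne1, Ccnd1, Ccne2, Cdk4, Cdk6, Cdk2, Ccnd2, Cdc25a and Ccnd3. The 95% interval of Ccne1, -1.77 to -1.38, lay apart from that of Ccnd1, -1.08 to -0.74. From Ccnd1 on, each interval overlapped that of the next gene, so neighbours in that order are not separated by these intervals. With the mean of each gene's probe sets the order differed, as Ccnd2 (-0.38) lay below Cdk6 (-0.22) and Cdk2 (-0.17). Centring on the poly-A spikes shifts every gene by -0.26 by construction. These spikes had medians of 7.52 and 7.71 on the null arrays, against 7.23 and 7.49 on the control arrays, so the shift is no larger than the gap between the control portions.

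**Figure D4:**
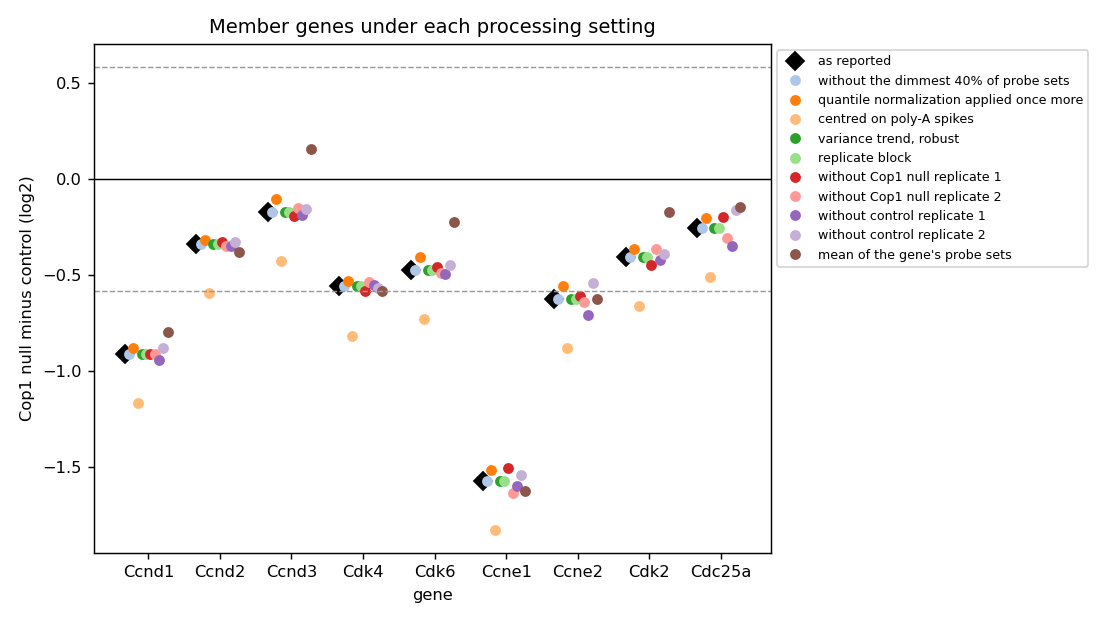
Difference between the pools (Cop1 null minus control, log2, vertical axis) of each of the 9 genes (horizontal axis) under each processing setting, with a black diamond for the reported value, coloured points for the alternatives and dashed lines at 1.5-fold. Ccne1 lies between -1.83 and -1.51 throughout, and Ccnd3 is the gene with a point above 0, at 0.16 for the mean of its probe sets.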

How the data were processed

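RNA of 6 whole embryos per genotype was pooled, divided and labelled with biotin from 5 micrograms, per the labels' protocols, giving 4 arrays, 2 for each pool. The authors deposited log2 expression values from RMA, which the submitters' processing notes tie to affy (an R package), with versions and probe mapping not given in the sources used here. Because the arrays are equalised by RMA, a change in total RNA per embryo leaves no trace. Values were used as deposited.

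The table held 45101 probe sets. After 64 Affymetrix control probe sets were set aside, 45037 were tested, of which 34945 have 1 gene in the platform's annotation, 932 have several and were not named, and 9160 are unlisted. RefSeq gene numbers matched 34741 and changed 0 symbols. Differences were fitted in limma 3.58.1 (R 4.3.3, lmFit and eBayes, genotype as the only term), with Benjamini-Hochberg adjustment over all tested probe sets, and the fit was tested on simulated data. Intervals cover 95%. The number of arrays limits the precision.

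The members and lists were chosen with earlier results of these data known. Besides the members the text names Cop1 and, per list, up to 4 called genes (2 for cell type markers) with the largest difference, or the 2 largest where none was called, and the 3 genes most alike to each of Ccne1 and Ccnd1. E2f8, Rb1, Rbl1, Tfdp2, Myc and Mycn fall outside this rule and were named after their values were seen. Counts over a list cover its measured genes, those with a probe set of a single gene. Alternatives were the mean of a gene's probe sets, dropping the dimmest 40%, another quantile normalization, centring on poly-A spikes, a variance trend, a replicate block, other limits and leaving out each array.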

Additional observations from a re-analysis of the deposited data

How the results depend on the processing

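Of the 27 member probe sets under 11 alternatives, 260 of 293 values kept their side of the limits, 10 lost a call, 23 gained one and 0 calls reversed. The direction of values without a call was not compared in this count. Among these, Ccnd3 1438805_at went from -0.07 to 0.07 without control replicate 1. Cdk2 1447617_at went from 0.07 to -0.19 with centring on the poly-A spikes and to -0.01 without Cop1 null replicate 2. With no fold limit, 19 member probe sets and 7 member genes were lower, beside 7933 falls and 6801 rises over all probe sets and 3973 falls and 2192 rises over all genes. With a 2-fold limit, 3 member probe sets and 1 member gene fell and 0 member probe sets rose, beside 749 falls and 1393 rises over all probe sets and 315 falls and 246 rises over all genes. Centring on the poly-A spikes moved the median of all genes to -0.28 and gave 18 member probe sets and 7 member genes that fell and 0 member probe sets that rose, beside 7168 falls and 1849 rises over all probe sets and 3441 falls and 339 rises over all genes, so that 8.97% of called genes were rises, against 30.8% as reported. Among all probe sets called, 20.5% were rises with that centring and 65.0% with the 2-fold limit, against 49.3%.

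The median difference of member genes was -0.38 with the mean of each gene's probe sets, -0.40 with quantile normalization applied once more and -0.73 with spike centring. Leaving out 1 array at a time gave medians of -0.50 to -0.45, 6 to 7 member probe sets that fell and 0 to 1 that rose, the 0 being without Cop1 null replicate 1. In these fits the remaining array of a pool is assumed to vary like those of the other pool. Of the 37 other genes taken by the rule for lists, 26 kept their call, or their lack of one, in 10 settings. The direction of genes without a call was not compared in this count. Bub1, which was not called, went from 0.27 to -0.16 with the mean of its probe sets. Tyms reversed with the mean of its probe sets (-0.26), and Prrx1 reversed with that mean (-0.39), without Cop1 null replicate 1 (-1.44) and without Cop1 null replicate 2 (-1.43), where a different probe set stood for it, so that leaving out 1 array gave -1.44 to 1.60. With the replicate block 7 member probe sets and 3 member genes fell, and 3092 probe sets fell over all. The block changed no call of a member, and the numbers do not pair the portions (r = 0.06 between same-numbered deviations). Quantile normalization applied once more left 5 member probe sets and 2 member genes that fell. Spike centring gave 7 falls among the E2F targets, 3 among CDK activators, 4 among ubiquitin ligase genes and 2 among heart markers, and 1 rise among endothelial markers. Signal limits the 4 dim member probe sets, which were not called in any setting.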
